A study of Mus musculus with 5 samples.

Results

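The genes described here encode the proteins of elastic fibres and the enzymes and accessory proteins that assemble them. The list names 9 genes, Eln, Fbn1, Fbn2, Fbln5, Lox, Loxl1, Mfap2, Mfap4 and Mfap5, and a member is any probe set on the array whose annotation carries 1 of these symbols and no other. This gave 16 probe sets of 8 genes, out of 34958 probe sets of 18194 genes; Fbn1 was not analysed here.

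Elastic fibres consist of a core of cross-linked elastin laid down on a scaffold of fibrillin microfibrils. Tropoelastin, the soluble product of Eln, is carried to the scaffold by fibulins and joined into an insoluble polymer by lysyl oxidases. In the newborn mouse lung elastin is made chiefly by myofibroblasts at the tips of the growing septa and by smooth muscle cells of airways and vessels, while alveolar type 2 cells are the surfactant-secreting epithelium.

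RNA came from GFP-positive cells that were sorted by flow cytometry after trypsin dissociation of SPC-GFP pup lungs on postnatal day 2. SPC-GFP mice carry a GFP reporter named after surfactant protein C and were mated with outbred ICR mice. All 5 samples are biological replicates of this 1 group, each on 1 one-colour array, so there was no untreated, wild-type or unsorted group. Titles and source name the cells alveolar type 2 and the design text names them ciliated; whether a replicate was 1 pup or a pool is not stated, so p-values cover only variation among these 5 samples.

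Values are the deposited log2 signals, and the number of arrays limits their precision. The array medians ran from 7.12 to 7.19. The background of an array, taken as the 95th percentile of 86 probe sets for olfactory, vomeronasal and taste receptors, ran from 5.33 to 5.61. All 9 measured alveolar type 2 markers lay above it, with means from 13.69 to 14.71, and so did 9 of 10 ciliated markers. Of all genes, 75.3% did. Replicate 3 stood apart in 1 of 2 controls often read as RNA integrity, with a 3′ minus 5′ difference of the Actb control probe sets of 0.845 log2 units against 0.542 to 0.599 in the others. The same difference of the Gapdh control was 1.27, 1.52, 1.67, 1.39 and 1.60 in replicates 1 to 5, with replicate 3 close to replicates 5 and 2. The 24 probe sets for poly-A control transcripts averaged 8.12, 9.25, 8.86, 8.02 and 8.59 in replicates 1 to 5, and the 10 for the bioB and bioC hybridisation controls were highest in replicate 1, at 12.57 against 11.63 to 11.79.

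Elastic fibre transcripts were measured above background in the sorted cells, from the elastin core to the cross-linking enzymes. Of the 16 probe sets, 15 passed limma's moderated test against the array background (one-sided, Benjamini-Hochberg adjusted p under 0.05), beside 72.2% of all probe sets. All 8 genes had at least 1 such probe set, beside 75.3% of all genes. The share of all genes passing was high, so a count of 8 of 8 sets these genes little apart from the rest. The exception was the third probe set of Lox, 1437903_at, with 3.14, 3.47, 3.69, 3.21 and 3.42 in replicates 1 to 5. Each probe set has its own hybridisation efficiency, so levels are compared between arrays and never between probe sets.

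**Figure D1:**
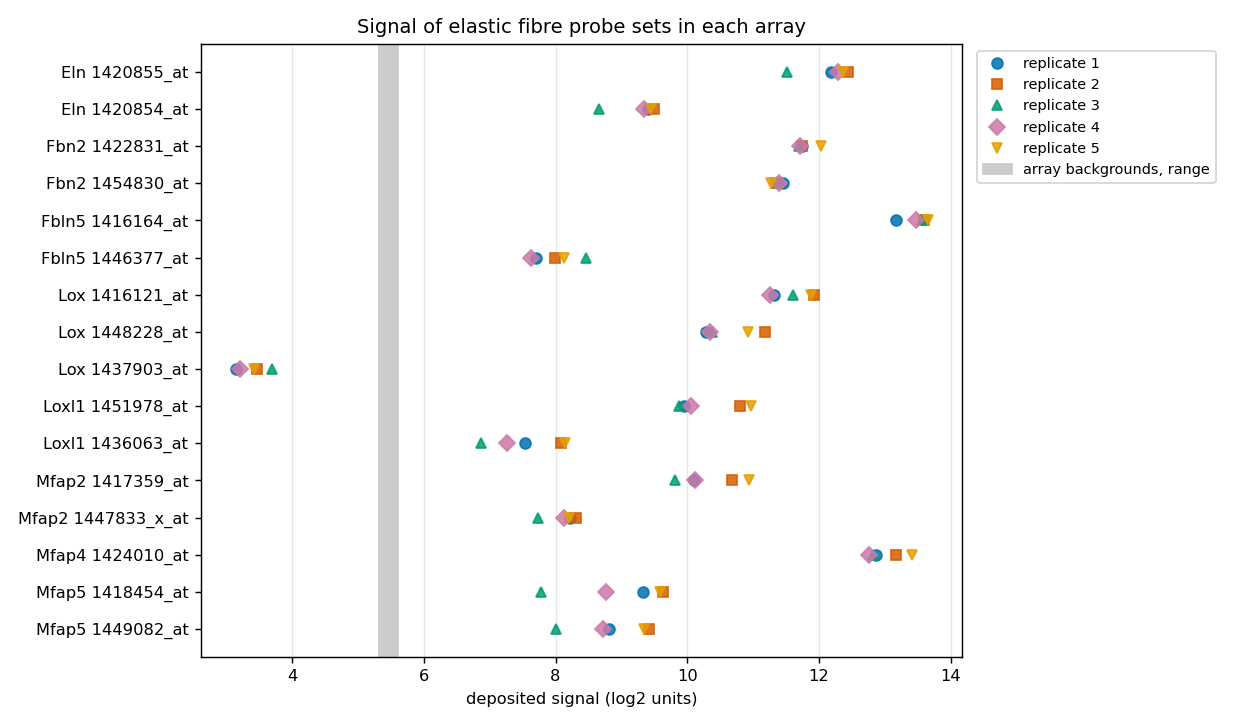
Each row is a probe set of an elastic fibre gene and each symbol the deposited signal of 1 replicate, on a log2 axis; the grey band spans the backgrounds of the 5 arrays. All rows except Lox 1437903_at lie to the right of the band, and the replicates of Mfap5 1418454_at lie between 7.77 and 9.63.

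Eln, which encodes tropoelastin, was lowest in replicate 3 on both of its probe sets. Probe set 1420855_at read 12.19, 12.44, 11.51, 12.29 and 12.37 in replicates 1 to 5, a mean of 12.16 ± 0.37 (SD, n = 5; limma adjusted p = 1.46e-17 against background). The other arrays lay within 0.25 log2 units of each other and replicate 3 lay below them; the whole range was 0.93 log2 units, or 1.90-fold. Probe set 1420854_at read 9.40, 9.49, 8.66, 9.34 and 9.44 in the same order. Once each was centred on its own mean, the 2 probe sets differed by no more than 0.10 log2 units on any array.

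Fbn2, which encodes the fibrillin most prominent in fetal microfibrils, varied least. Probe set 1422831_at read 11.74, 11.74, 11.69, 11.70 and 12.04 in replicates 1 to 5, and 1454830_at read 11.45, 11.34, 11.39, 11.39 and 11.27. Replicate 5 was the highest array on the first and the lowest on the second, so the probe sets gave no common order. The SD was 0.14 and 0.067, against 0.11 and 0.12 fitted for probe sets of such signal.

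Mfap2 and Mfap5 encode the small microfibril-associated glycoproteins MAGP-1 and MAGP-2, which bind fibrillins. Mfap5 had the widest range of the members, with 9.32, 9.63, 7.77, 8.76 and 9.59 in replicates 1 to 5 on 1418454_at, which is 3.62-fold from lowest to highest. Its second probe set, 1449082_at, read 8.81, 9.41, 8.01, 8.72 and 9.35 and gave the same lowest and highest arrays. Replicate 3 was lowest and replicates 2 and 5 were highest on both.

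Mfap2 read 10.10, 10.68, 9.81, 10.12 and 10.94 on 1417359_at, a mean of 10.33 ± 0.46 (SD, n = 5). Replicates 2 and 5 stood above the other 3, and replicate 3 was again lowest. The second probe set, 1447833_x_at, carries a suffix that marks possible hybridisation to other transcripts. It read 8.22, 8.30, 7.74, 8.13 and 8.21. It shared the low value in replicate 3 but not the high value in replicate 5, and after centring the 2 probe sets differed by up to 0.52 log2 units.

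Mfap4 encodes a fibrinogen-related glycoprotein that binds elastin and fibrillin. It had 1 probe set, 1424010_at, which read 12.87, 13.17, 12.82, 12.76 and 13.41 in replicates 1 to 5. Replicate 5 was highest, replicate 2 next, and the other 3 lay within 0.11 log2 units of each other.

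Fbln5, which encodes fibulin-5, a calcium-binding protein that links tropoelastin to microfibrils, did not share the low value in replicate 3. Probe set 1416164_at read 13.17, 13.59, 13.56, 13.47 and 13.65 in replicates 1 to 5, a mean of 13.49 ± 0.19 (SD, n = 5). Replicate 1 was the lowest array here, 0.30 log2 units under the next. Probe set 1446377_at read 7.70, 7.99, 8.46, 7.62 and 8.13, so replicate 3 was the highest array on it while replicates 1 and 4 were low.

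Upstream sequences from the RefSeq promoter table (GRCm38.p6) are shown for 2 of the 8 measured genes, Mfap2 and Fbln5. The order of these 2 genes over the replicates differed in replicate 3. The search left out part of the genome, so it does not show that the other genes lack a window. Each sequence is the 250 bases before the most upstream listed start, at chr4:141010174-141010423 on the plus strand and chr12:101819120-101819369 on the minus strand. Both strands were searched for the TATA box (TATAAA), the GC box (GGGCGG), the CCAAT box (CCAAT) and the AP-1 site (TGANTCA). Capitals mark the matches, none of which overlapped.
Mfap2: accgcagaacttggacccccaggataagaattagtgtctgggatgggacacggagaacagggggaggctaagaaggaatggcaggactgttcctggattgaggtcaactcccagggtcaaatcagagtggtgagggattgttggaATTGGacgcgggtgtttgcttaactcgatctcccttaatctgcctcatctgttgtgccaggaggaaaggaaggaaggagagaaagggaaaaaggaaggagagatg
Fbln5: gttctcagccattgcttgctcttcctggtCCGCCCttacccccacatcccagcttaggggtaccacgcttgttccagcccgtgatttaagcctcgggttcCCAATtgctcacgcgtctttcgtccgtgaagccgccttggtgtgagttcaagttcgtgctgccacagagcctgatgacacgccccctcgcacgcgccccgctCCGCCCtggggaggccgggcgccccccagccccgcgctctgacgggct
The Fbln5 window held 2 matches to GGGCGG, which 32.7% of 32851 promoter windows of this length contained. Both windows held 1 match to CCAAT, as did 33.8% of all windows in at least 1 place. Neither held TATAAA (12.4% of windows) or TGANTCA (6.75%). These matches describe the letters in the windows only.

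The lysyl oxidases Lox and Loxl1 are copper-dependent enzymes that oxidise lysines of tropoelastin and collagen so that cross-links form. Lox read 11.32, 11.92, 11.61, 11.25 and 11.87 in replicates 1 to 5 on 1416121_at, and 10.29, 11.18, 10.38, 10.34 and 10.92 on 1448228_at. Replicates 2 and 5 were highest on both, and replicate 3 lay between these and replicates 1 and 4 on the first probe set and close to replicates 1 and 4 on the second. The poly-A control mean was also lowest in replicates 4 and 1 (8.02 and 8.12) and highest in replicate 2 (9.25); its part in the Lox values was not tested.

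Loxl1, whose product is targeted to elastin deposition through fibulin-5, read 9.95, 10.80, 9.87, 10.06 and 10.97 on 1451978_at, a 2.14-fold range. Replicates 2 and 5 lay at least 0.74 log2 units above the other 3. Probe set 1436063_at read 7.54, 8.09, 6.88, 7.27 and 8.15, with the same 2 arrays on top and replicate 3 lowest.

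**Figure D2:**
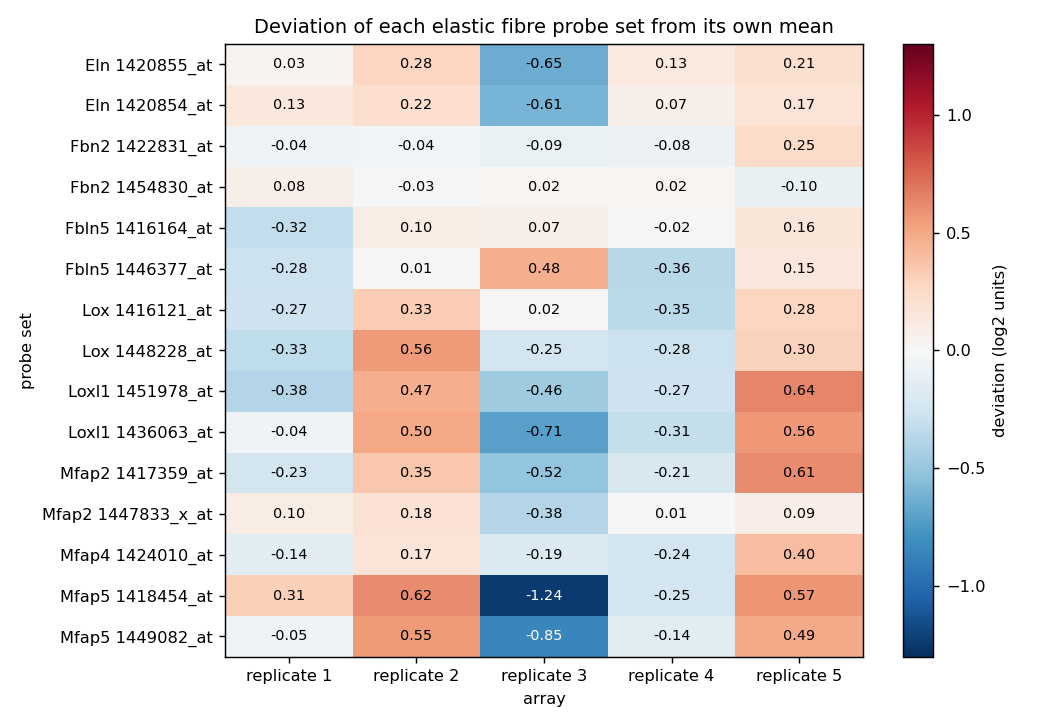
Each row is a probe set above background and each column an array; colour and number give the deviation of the deposited value from the mean of that probe set over the 5 arrays, in log2 units. Mfap5 1418454_at reaches -1.24 in replicate 3, Eln shows its one large deviation there, and the Fbln5 rows have 0.07 and 0.48 there and are low in replicate 1 instead.

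Replicates 2 and 5 held the 2 highest values in 12 of the 15 probe sets above background, a grouping chosen after the values were seen. Of all probe sets above background 13.2% had this order. The exceptions were Fbn2 1454830_at, Fbln5 1446377_at and Mfap2 1447833_x_at. Without replicate 3 the count was 13 of 15, beside 25.7% of all probe sets. Replicate 3 was lowest in 9 of the 15, beside 25.3% of all probe sets above background, and those 9 belonged to Eln, Fbn2, Loxl1, Mfap2 and Mfap5.

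The replicates of these genes lay further apart than those of most probe sets of like signal, but no single probe set passed after adjustment. The variance over the arrays was divided by the variance that limma fits for the same signal. By the one-sided F test 9 of 16 probe sets reached an unadjusted p under 0.05, beside 5.47% of all probe sets. After Benjamini-Hochberg adjustment over 34958 probe sets, 0 of 16 and 0% of all passed. The smallest adjusted p among the members was 0.770 (Mfap5 1418454_at, unadjusted p = 0.00575). Tnnt2, a cardiac gene with a 12.6-fold range over the arrays, also had an adjusted p of 0.770 in this test. A count of 0 after adjustment therefore does not show that the replicates agreed. The 9 probe sets were 1 of Eln, 1 of Fbln5, 2 of Lox, 1 of Loxl1, 1 of Mfap2, 1 of Mfap4 and 2 of Mfap5, and Fbn2 had none. The median SD of the 15 probe sets above background was 0.34 log2 units, and that of all 25238 above background was 0.17.

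**Figure D3:**
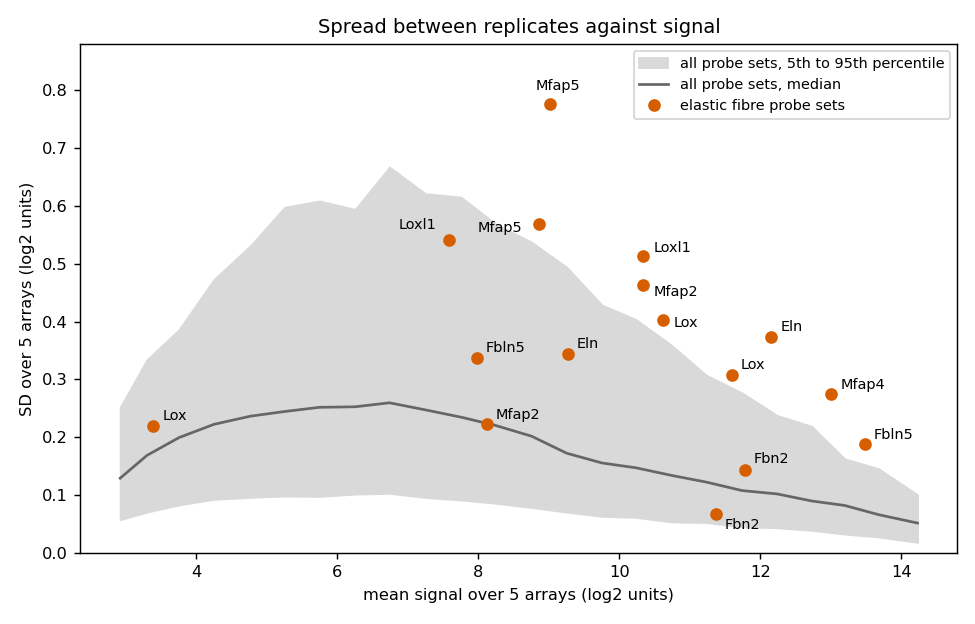
The SD over the 5 arrays is plotted against mean signal, both in log2 units; orange points are the 16 elastic fibre probe sets, the line is the median of all probe sets in bins of signal and the band runs from their 5th to their 95th percentile. Mfap5, Loxl1, Mfap2, Lox, Eln, Mfap4 and Fbln5 each have a point above the band, while both Fbn2 points lie inside it.

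Several of these probe sets no longer reached 0.05 when 1 array was left out, which also leaves fewer arrays in the test. Eln 1420855_at had an unadjusted p of 0.00926 with all arrays and 0.387 without replicate 3, where its range of 0.93 log2 units shrank to 0.25. Fbln5 1416164_at had 0.0436, and 0.492 without replicate 1, where its range of 0.47 shrank to 0.18. In Lox and Mfap2 most of the range remained. Lox 1416121_at had 0.0319, and 0.0530 without replicate 2 or 0.0604 without replicate 4, with ranges of 0.62 and 0.60 of the full 0.67 log2 units. Lox 1448228_at had 0.0233, and 0.0912 without replicate 2, with 0.63 of 0.89 left. Mfap2 1417359_at had 0.0166, and 0.0610 without replicate 5, with 0.86 of 1.13 left, and Mfap4 had 0.0151, and 0.0724 without replicate 5, with 0.41 of 0.64 left. Mfap5 1449082_at had 0.0232, and 0.0789 without replicate 3, with 0.70 of 1.40 left.

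Markers of other cell types were measured in the same arrays. The counts above background given for these lists stand beside 75.3% of all genes. The score of a list on an array is the mean, over its genes above background, of the deviation of each gene from its own mean, taking for each gene the probe set with the highest mean. The 8 elastic fibre genes scored -0.13, 0.28, -0.38, -0.16 and 0.39 in replicates 1 to 5, a range of 1.71-fold. In these bulk samples fewer cells of a type and less RNA per cell cannot be told apart.

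Fibroblast markers had 9 of 10 genes above background and scored -0.04, 0.37, -0.56, -0.16 and 0.39, a range of 1.92-fold. By the F test for spread, 8 of 10 reached an unadjusted p under 0.05 (0 adjusted), beside 5.47% of all probe sets. The median SD of the 9 was 0.41 log2 units. The 5 arrays stood in the same order as for the elastic fibre genes. The widest ranges were those of Dcn, a matrix proteoglycan gene, with 8.90, 9.40, 7.05, 8.65 and 8.65 in replicates 1 to 5, Col14a1, a fibril-associated collagen gene, with 8.17, 8.65, 7.13, 8.09 and 8.44, and Meox2, a homeobox gene, with 9.73, 10.58, 9.98, 9.72 and 10.93. The marker not above background was Lum, with 5.61, 6.16, 3.79, 5.61 and 5.92.

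All 10 smooth muscle and myofibroblast markers lay above background and scored -0.15, 0.24, -0.51, 0.08 and 0.33. Their median SD was 0.41 log2 units, and 4 of 10 reached an unadjusted p under 0.05 for spread (0 adjusted). The widest ranges were those of Tagln, an actin-binding protein gene of smooth muscle, with 11.48, 12.07, 10.99, 11.31 and 12.25, Synpo2, with 6.96, 6.83, 6.67, 7.89 and 7.21, and Myh11, the smooth muscle myosin gene, with 8.67, 9.16, 7.98, 8.88 and 9.15. Without replicate 3 the elastic fibre genes still ranged over 1.47-fold, the fibroblast markers over 1.46-fold and the smooth muscle markers over 1.39-fold, each highest in replicate 5. The assembly, growth factor, elastin degradation, receptor, endothelial, cardiac (1.56-fold) and immune (1.31-fold) lists were then also highest in replicate 5. The ciliated (2.80-fold), mesothelial (1.58-fold), chondrocyte, alveolar type 1 and alveolar type 2 lists were not.

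Most cardiac, immune and endothelial markers were above background too. All 8 cardiac muscle markers lay above background and scored 0.41, 0.23, -1.10, -0.08 and 0.56. The widest range was that of Tnnt2, the cardiac troponin T gene, at 7.75, 7.96, 4.91, 7.09 and 8.57. Of the 8, 5 were lowest in replicate 3, while Tnni3 was lowest in replicate 4, Nppa in replicate 2 and Ryr2 in replicate 5. All 8 immune markers lay above background and scored -0.03, -0.05, -0.41, 0.16 and 0.34. Endothelial markers, 9 of 10 above background and without the arterial connexin gene Gja5 (4.92 ± 0.09, SD, n = 5), scored 0.10, -0.16, -0.15, 0.03 and 0.18. An unadjusted p under 0.05 for spread was reached by 5 of 8 cardiac, 5 of 8 immune and 0 of 10 endothelial markers (0 adjusted in each list). Replicate 3 was lowest in the fibroblast, smooth muscle, cardiac and immune lists alike, and the Actb 3′ minus 5′ difference was largest there. The Gapdh difference was also largest in replicate 3, at 1.67, with 1.60 in replicate 5 and 1.52 in replicate 2. The part of cell composition and of RNA integrity in the elastic fibre values was not tested.

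The epithelial lists moved in other ways. Ciliated markers scored 1.04, 0.31, -0.55, -0.44 and -0.36 in replicates 1 to 5, a range of 3.01-fold, and 8 of 10 reached an unadjusted p under 0.05 for spread (0 adjusted). Replicate 3 was lowest, as in the fibroblast, smooth muscle, cardiac and immune lists, but replicate 1 was highest and replicate 5 lay below the mean. Their widest ranges were those of Cfap206, a ciliary gene, with 9.48, 8.26, 7.41, 7.26 and 7.27, Spag6l, a gene of the axoneme's central apparatus, with 10.03, 9.11, 7.86, 8.05 and 8.28, and Dnaic1, an axonemal dynein gene, with 7.89, 7.03, 6.22, 5.74 and 6.40; Dnah5 (5.46 ± 0.36, SD, n = 5) was not above background. Alveolar type 2 markers scored 0.02, -0.03, 0.02, 0.06 and -0.08, a range of 1.10-fold. Their median SD was 0.08 log2 units. All probe sets near signals of 13.68 and 14.23 had median SDs of 0.07 and 0.05, so the narrow range is usual at such signal. Alveolar type 1 markers, all 8 above background, scored -0.20, 0.13, 0.11, -0.12 and 0.09, so replicates 1 and 4 were low and replicate 3 was not. Rtkn2, a marker of these flat gas-exchange cells, read 11.07, 11.79, 12.01, 11.18 and 11.89, Igfbp2 10.84, 11.54, 11.30, 11.02 and 11.40 and the water channel gene Aqp5 13.24, 13.73, 13.51, 13.40 and 13.70. As for Lox, the poly-A control mean was likewise lowest in replicates 4 and 1 (8.02 and 8.12) and highest in replicate 2 (9.25). Its part in the alveolar type 1 and Fbln5 values was not tested. The centred profile of each gene was set against the alveolar type 1, fibroblast and smooth muscle scores by the root mean square difference over the 5 arrays. Fbln5 1416164_at differed from them by 0.08, 0.35 and 0.29 log2 units and Lox 1416121_at by 0.17, 0.29 and 0.31. Fbn2 1422831_at differed by 0.15, 0.29 and 0.24. Of the 3, the alveolar type 1 score was the nearest to each of these probe sets. On Lox 1448228_at the same differences were 0.28, 0.22 and 0.26, with the fibroblast score nearest of the 3. This probe set lay closer to the chondrocyte (0.20) and assembly gene (0.20) scores. The score of the receptor genes for elastin and microfibrils was as close to Fbln5 1416164_at (0.08). It was closer to Lox 1416121_at (0.14) and Fbn2 1422831_at (0.12). Fbn2 1422831_at lay closer still to the scores of the growth factor (0.08), elastin degradation (0.10) and endothelial (0.11) lists. Fbn2 1454830_at was nearest to the alveolar type 2 score (0.03). Mfap2 1417359_at differed from the same 3 scores by 0.38, 0.13 and 0.19 and Loxl1 1451978_at by 0.40, 0.20 and 0.26, both nearest to fibroblasts. Mfap2 1447833_x_at differed by 0.27, 0.20 and 0.17, nearest of the 3 to smooth muscle. It lay closer to the elastin degradation (0.12), chondrocyte (0.13) and assembly gene (0.16) scores. Eln 1420855_at differed by 0.38, 0.17 and 0.12, nearest to smooth muscle, and Mfap4 by 0.20, 0.20 and 0.21. Mfap4 lay closer to other scores, among them assembly genes (0.10), receptors (0.13), growth factors (0.14) and chondrocyte markers (0.15). Mfap5 1418454_at differed by 0.72, 0.37 and 0.46 and was closer to the cardiac score (0.20). The second probe set, Mfap5 1449082_at, differed by 0.51, 0.16 and 0.25. It differed from the cardiac score by 0.28, so it was nearest to fibroblasts. These are descriptions over 5 points that share their arrays, and they depend on the size of each range.

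**Figure D4:**
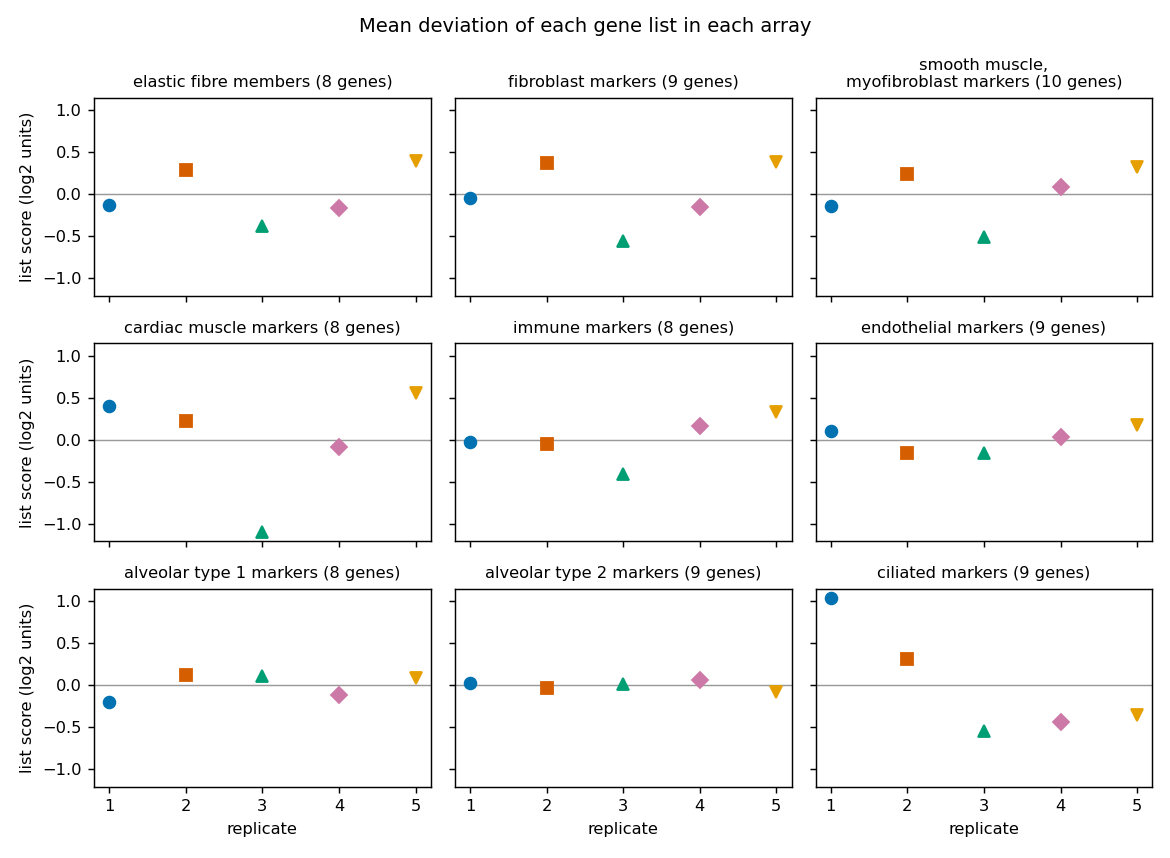
Each panel shows the score of 1 gene list, in log2 units, on the 5 arrays, with a line at 0; the number of genes above background stands in the panel title. Elastic fibre, fibroblast and smooth muscle genes share high values in replicates 2 and 5 and a low value in replicate 3, alveolar type 2 markers stay between -0.08 and 0.06, and ciliated markers reach 1.04 in replicate 1.

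Other genes of elastic fibre assembly were measured in a list of 24, of which 20 had a probe set and all 20 lay above background, beside 75.3% of all genes. The list holds fibulins, emilins, latent TGF-beta binding proteins, further lysyl oxidases and microfibril-binding ADAMTS proteins. Its scores were -0.14, 0.20, -0.18, -0.10 and 0.22, and 7 of 20 genes reached an unadjusted p under 0.05 for spread (0 after adjustment). Its median SD was 0.31 log2 units, beside 0.15 over all genes above background.

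The widest ranges in that list were those of a microfibril regulator, a matrix glycoprotein and an emilin. Adamtsl2, an ADAMTS-like protein that binds fibrillin, read 7.84, 7.52, 6.34, 6.90 and 7.70 in replicates 1 to 5. Tnxb, a tenascin of connective tissue, read 6.56, 7.51, 6.10, 6.59 and 7.00. Emilin1, a glycoprotein at the surface of the elastin core, read 8.79, 9.56, 8.38, 8.76 and 9.52, with replicates 2 and 5 on top as for Loxl1 and Mfap5. All 3 were lowest in replicate 3.

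Growth factor genes that act on elastin synthesis were all above background (16 of 16), beside 75.3% of all genes. They include the TGF-beta ligands and receptors and the PDGF-A pathway, through which the epithelium sustains alveolar myofibroblasts. Their scores were -0.12, 0.09, -0.08, -0.06 and 0.17, a range of 1.22-fold, and 2 of 16 reached an unadjusted p under 0.05 for spread (0 adjusted). The widest ranges were those of Fgfr4, a receptor gene needed with Fgfr3 for normal septation in mice, with 8.51, 9.31, 8.77, 8.35 and 9.76, Igf1, with 8.58, 9.30, 8.02, 8.80 and 9.29, and Pdgfra, the PDGF-A receptor gene, with 9.64, 9.60, 9.07, 9.35 and 9.97. Fgfr4 and Pdgfra were highest in replicate 5, and Igf1 in replicate 2 with replicate 5 close behind.

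Of 16 measured genes for elastin-degrading proteases and their inhibitors, 12 lay above background, a share like that of all genes (75.3%). The 4 that did not were Mmp12, the macrophage elastase gene (4.66 ± 0.47, SD, n = 5), and the granule proteases Elane (4.21 ± 0.18), Prtn3 (5.67 ± 0.52) and Ctsg (5.33 ± 0.25). Mmp9, a gelatinase gene, read 7.45, 6.21, 5.87, 7.51 and 7.09 in replicates 1 to 5 and did not share the high value in replicate 2. Mmp2 read 10.99, 11.45, 10.71, 10.66 and 11.69 and Ctsk, a cathepsin gene, 7.38, 7.23, 6.28, 7.17 and 7.48.

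Receptors for elastin and microfibrils were above background in 11 of 12 cases, all but Itgb8 (4.40 ± 0.56, SD, n = 5), beside 75.3% of all genes. Their scores were -0.23, 0.15, -0.03, -0.11 and 0.23. The integrin subunit gene Itgb3 read 9.34, 10.57, 10.56, 9.47 and 10.68, Itga8, whose product pairs with the beta-1 subunit, 10.06, 11.09, 10.36, 10.11 and 11.24, and Itgb6, an epithelial subunit gene, 8.97, 9.58, 9.38, 9.43 and 9.92. All 3 were lowest in replicate 1 and highest in replicate 5, and none was lowest in replicate 3.

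Profiles most like those of the members were sought among 13691 other genes above background, by the root mean square difference of centred values over the 5 arrays. The gene nearest to the mean member profile was Fn1, which encodes fibronectin and also stands in the assembly list, with 12.61, 13.02, 12.39, 12.57 and 13.12 and a difference of 0.02 log2 units. The next were Aldh3b2, 9230116N13Rik, Mical3 and D430019H16Rik, at 0.03 to 0.04. The genes nearest to Eln were Kcnk7, the smooth muscle actin gene Actg2, the desmin gene Des, Cx3cr1 and Rgs5, at 0.04 to 0.06. Actg2 read 9.48, 9.84, 8.85, 9.56 and 9.75, and Des 7.67, 7.98, 7.09, 7.88 and 8.02. With 13691 genes and 5 arrays some near matches arise for any profile.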

How the data were processed

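The deposited values are 1 log2 signal per probe set and array; the log base was inferred from their range (2.46 to 15.24). Per the labels' protocols, total RNA was amplified with a NuGEN Ovation kit and labelled with biotin. Background correction, summary and normalization are not stated, and no scanner files were used.

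Of 45101 probe sets, 34958 had 1 symbol in an annotation of 2016, 932 had several and 9211 were unnamed; only the first were used. The 8 member identifiers found in a RefSeq gene table carried the same symbols. For each gene the probe set with the highest mean was taken.

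An intercept was fitted to values minus array background (lmFit and eBayes with trend in limma 3.58.1 under R 4.3.3). Of the 86 receptor probe sets, 4 were called. Spread was tested with 4 and 4.62 degrees of freedom. Both tests were tested on simulated data.

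Members and the other 14 lists (157 genes) were chosen with earlier results of these data known. Named were all members; in each list the 3 genes of widest range above background and the genes not above it where there were 5 or fewer; and the 5 genes nearest to Eln and to the mean member profile. Not every such gene is printed. Alternatives were other background percentiles (90 and 99), no trend, a prior that is not robust, a filter on low signal, quantile normalization, median centring, no cross-hybridising probe set types, the median over probe sets and leaving out each replicate.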

Additional observations from a re-analysis of the deposited data

Results flagged for a closer look

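A replicate lay far from the other 4 in 8 of 88 sets of values examined. The measure was the ratio of its gap to the nearest value over the whole range (above 0.71). Chance gives about 5% for independent sets. These sets share their arrays and include list scores, several probe sets of 1 gene and genes named for wide range. The count therefore cannot show an excess over chance. Among the elastic fibre genes, those flagged were Eln 1420855_at (ratio 0.733), Eln 1420854_at (0.821) and Fbn2 1422831_at (0.855). Both Eln probe sets were low in replicate 3, at 11.51 and 8.66. Fbn2 1422831_at was high in replicate 5, at 12.04. The other Fbn2 probe set was lowest in that replicate. Ctsk (0.744) and Lum (0.769) were low in replicate 3, at 6.28 and 3.79. Rspo1 (0.746) was high in replicate 2 at 7.35, Col9a1 (0.734) high in replicate 1 at 7.16 and Cebpa (0.812) low in replicate 5 at 13.56. The Actb 3′ minus 5′ difference was largest in replicate 3 (0.845), and the Gapdh difference was 1.67 there against 1.27 to 1.60 elsewhere; their part in the Eln, Ctsk and Lum values was not tested.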

How the results depend on the processing

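All 8 genes stayed above background under each alternative run, and 15 probe sets did, or 14 of 15 where the cross-hybridising type was left out. The count of other listed genes above background was 136, ranging from 120 without cross-hybridising types to 142 at the 90th percentile, and from 136 to 137 with 1 replicate left out. The count of member probe sets with excess spread was 0 after adjustment in every setting, and 7 to 9 at an unadjusted p under 0.05 with 1 replicate left out. With each array centred on its median it was 8, without Fbln5 1416164_at. Beside the losses given above, Loxl1 1436063_at passed without replicate 1. In alternatives added after seeing the data, replicates 2 and 5 held the 2 highest values in 12 or 13 of 15 probe sets, beside 12.5% to 25.7% of all probe sets, and replicate 3 was lowest in 9 or 10, beside 26.3% to 30.3%; the upper shares come with an array left out. Levels moved by more than 1 SD only where the median over probe sets represented a gene, for 6 of 8 genes (Eln 10.71, Fbn2 11.58, Fbln5 10.73, Lox 10.62, Loxl1 8.96 and Mfap2 9.23). No paired analysis was possible because there is 1 group. Saturation could not be checked, and the deposited normalization can shift all values of an array together.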

Other observations

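Cartilage and the pleura also hold elastic fibres or microfibrils, and some of their markers were measured above background. Of all genes, 75.3% were above background. Of 6 chondrocyte markers 3 lay above it, Comp (6.20 ± 0.38, SD, n = 5), Col2a1 (5.61, 6.45, 5.79, 5.83 and 6.32 in replicates 1 to 5) and Sox9 (11.04 ± 0.09), of which Sox9 is also expressed by lung epithelium; Acan (5.43 ± 0.23), Matn1 (4.12 ± 0.15) and Col9a1 (5.85 ± 0.76) did not. Of 8 mesothelial markers 4 lay above it, namely Krt19 (13.61 on average), which is also an epithelial keratin gene, Msln (11.73 ± 0.18), Rspo1 (6.81 ± 0.31) and Upk3b, which read 8.84, 8.69, 7.97, 9.46 and 7.02 in replicates 1 to 5. Not above background were Wt1 (5.52 ± 0.64), Lrrn4 (4.56 ± 0.13), Muc16 (4.58 ± 0.78) and Bnc1 (4.77 ± 0.68).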
